A study of Mus musculus with 13 samples.

Results

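Smad6, Smad7, Ski, Skil, Smurf1, Smurf2, Tgif1, Pmepa1 and Bambi are 9 genes whose products restrain TGF-beta signaling. They were chosen by name out of 21938 protein-coding genes of the GENCODE vM21 annotation (mm10), and the locus of each gene was its annotated span plus 10 kb on each side. Every SMAD3 peak, OCT4 peak and site of differential binding that shared at least 1 bp with a locus was described. Member loci ranged from 28.5 to 121 kb in length, with a median of 72.1 kb, against a median of 37.4 kb over all protein-coding genes.

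The study mapped SMAD3 and OCT4 by ChIP-seq in mouse embryonic fibroblasts (MEFs) on day 3 of reprogramming. The cells came from mixed male and female embryos of the TNG MKOS mouse line, on a mixed genetic background with CD1. The line carries a Nanog-GFP reporter that knocks out the targeted Nanog allele (heterozygous). At the Sp3 locus it carries an rtTA under the CAG promoter with a tetO cassette for c-Myc, Klf4, Oct4 and Sox2 (MKOS). All groups, the Dox- controls included, had been infected with a retrovirus for Smad3CA, a constitutively active SMAD3, and were kept in medium with serum and LIF, so no group lacked Smad3CA. By the labels, Dox+ cells received doxycycline at 1 µg/ml, which switches the MKOS cassette on, and Dox- cells received none. The general reprogramming methods of the paper state a lower concentration and add vitamin C to the reprogramming medium. SMAD3 was immunoprecipitated from Dox+ cells (3 replicates) and Dox- cells (3 replicates) and OCT4 from Dox+ cells (3 replicates), with 2 input samples for each dox condition. The SMAD3 antibody was not stated to tell Smad3CA from the SMAD3 of the cell. Peak lists hold no expression values, so the fibroblast identity of the cells could not be checked against marker genes.

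TGF-beta and activin receptors phosphorylate SMAD2 and SMAD3, which join SMAD4 and bind DNA together with other factors. Among the genes that this complex is known to switch on are those for its own inhibitors, which closes a negative feedback loop. SMAD6 and SMAD7 are inhibitory SMADs that block the receptors or the complex, SKI, SKIL (SnoN) and TGIF1 are corepressors that bind SMADs on DNA, SMURF1 and SMURF2 are ubiquitin ligases that mark SMADs and receptors for degradation, PMEPA1 is a membrane protein that holds receptor-activated SMADs away from the receptor, and BAMBI is a decoy receptor without a kinase domain.

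The 6 SMAD3 replicate lists differed far more in length than the conditions did. The Dox+ lists held 420, 23981 and 10374 regions in replicates 1, 2 and 3, and the Dox- lists held 1656, 18588 and 4038. The merged lists, called on pooled replicates, held 12576 regions in Dox+ and 11512 in Dox-, and the merged OCT4 list held 2022. A gene absent from a short list was therefore given as absent from that list and not as unbound. Read depth is unknown from peak lists, and nothing in the labels stated whether replicates came from separate cultures.

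All 9 loci held SMAD3 peaks in both conditions, and none held an OCT4 peak. A merged SMAD3 peak lay in 9 of 9 member loci in Dox+ and in 9 of 9 in Dox-, where 52.5% and 48.0% of all protein-coding genes had one. The merged lists placed 15 peaks at the 9 loci in Dox+ and 23 in Dox-. The median per member was 1 in Dox+ and 2 in Dox-, against 1 and 0 over all protein-coding genes, whose loci were shorter in the median. No merged OCT4 peak overlapped a member locus, where 4.85% of all genes had one, and none did in the 3 OCT4 replicate lists either, where 5.67% of genes had an OCT4 peak in at least 1 of the 4 lists. A count of 0 of 9 is near that background and is no result about the members. The gap from the gene to the nearest merged OCT4 peak ran from 11.3 kb at Tgif1 and 91.0 kb at Skil to 4707.3 kb at Ski, with a median of 157 kb over the members and of 558 kb over all genes with an OCT4 peak on their chromosome.

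The transcription start was the part of the locus that SMAD3 peaks covered most regularly. A merged peak lay within 1 kb of an annotated start in 9 of 9 genes in Dox+, against 42.5% of all protein-coding genes, and in 9 of 9 in Dox-, against 37.8%. Both lists did so in 9 of 9 genes, against 33.6%. Among replicate lists the count was 3 of 9 in Dox+ replicate 1 (1.72% of all genes), 9 of 9 in replicate 2 (50.5%) and 9 of 9 in replicate 3 (36.2%). In Dox- it was 7 of 9 in replicate 1 (7.62%), 9 of 9 in replicate 2 (43.8%) and 5 of 9 in replicate 3 (14.9%). In each of these lists the share of the members was above the share of all genes, though the members were chosen with earlier results of these data known. Any annotated start of a gene counted, and the members had from 1 (Bambi) to 11 (Tgif1) distinct starts. The genes compared were not matched for the number of starts, and its part in these counts was not tested.

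Overlapping peaks of the 8 SMAD3 lists were joined into regions, and 1 region over the main start was followed at each gene. Of these 9 start regions, 2 were in all 6 replicate lists, 3 in 5 lists, 3 in 4 lists and 1 in 3 lists. Strength is given as the fold enrichment over input of the strongest peak in the region, a linear ratio taken from the authors' peak caller. Such values are comparable within a list only. The order of folds from different lists is therefore described below and is no measure of a change in binding.

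The inhibitory SMAD genes were among the most regular. The start region of Smad7 (chr18:75366359-75367937, centered 381 bp before the start) was in all 6 lists, with a fold of 2.35, 1.92 and 2.84 in Dox+ replicates 1, 2 and 3 and of 2.55, 2.35 and 2.49 in Dox-. The Dox- values of Smad7 fell inside the Dox+ range. Most of these calls were weak. The −log10 q-value at Smad7 was 0.60, 0.81 and 2.18 in Dox+ replicates 1, 2 and 3 and 0.92, 1.00 and 0.67 in Dox-. Presence in a list is thus no measure of firm binding. The start region of Smad6 (chr9:64020121-64023229) reached 2.59, 2.54 and 2.18 in Dox+ and 2.44 and 2.32 in Dox- replicates 1 and 2, with no peak in Dox- replicate 3. The ranges of Smad6 overlapped as well, and its merged folds were 2.46 in Dox+ and 2.45 in Dox-.

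Of the corepressor genes, Skil had its start region (chr3:31093626-31096110) in all 6 lists, Tgif1 in 4 and Ski in 3. The fold at Skil was 3.18, 2.92 and 2.30 in Dox+ and 2.70, 2.51 and 2.16 in Dox-, so that the ranges overlapped. Its −log10 q-value was 1.29, 2.63 and 1.17 in Dox+ and 0.88, 1.55 and 0.74 in Dox-. At Ski, a proto-oncogene that recruits histone deacetylases, the region chr4:155221522-155223660 was missing from both replicate 1 lists and from Dox- replicate 3. Its fold was 1.94 and 4.84 in Dox+ replicates 2 and 3 and 2.16 in Dox- replicate 2, so its 2 Dox+ values lay on both sides of the only Dox- value. At Tgif1, which encodes a homeodomain corepressor, the region chr17:70847870-70853953 was the longest of the 9 at 6084 bp and ran over several annotated starts. The fold at Tgif1 was 2.11 and 2.60 in Dox+ replicates 2 and 3 and 2.83 and 2.56 in Dox- replicates 2 and 3. These values came from peaks at different places in the region. The peak with 2.60 lay 3590 to 4685 bp past the 5′ end, and the Dox+ replicate 3 peak over that end had 2.43. The Dox- replicate 3 peak lay 1480 to 2524 bp past the 5′ end, while the peaks with 2.11 and 2.83 ran over it.

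The ubiquitin ligase genes each had 1 regular region, over the start. The start region of Smurf2 (chr11:106920185-106921171) was in 5 lists, with a fold of 2.18 and 1.98 in Dox+ replicates 2 and 3 and of 2.17, 2.00 and 3.12 in Dox- replicates 1, 2 and 3. Its merged fold was 2.17 in Dox+, higher than 39.2% of the merged list, and 3.89 in Dox-, higher than 93.6% of that list. The merged difference at Smurf2 was larger than the gap between replicate lists, which overlapped. The start region of Smurf1 (chr5:144965341-144966144) was in 4 lists, with a fold of 2.48 and 2.77 in Dox+ replicates 2 and 3 and of 2.49 and 2.33 in Dox- replicates 1 and 2.

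At the genes of the 2 membrane proteins the merged fold was higher in Dox+. It was also higher in Dox+ at Ski (3.00 against 2.48) and at Smad6 (2.46 against 2.45). At Bambi (chr18:3507557-3508756) the merged fold was 3.61 in Dox+, higher than 91.0% of the list, and 1.76 in Dox-, higher than 6.63%. The replicate values at Bambi were 4.33 and 2.53 in Dox+ replicates 2 and 3 and 3.36 and 1.84 in Dox- replicates 1 and 2, and these overlapped. At Pmepa1 (chr2:173274012-173277107) the fold was 2.94 and 3.61 in Dox+ replicates 2 and 3 and 2.29, 2.19 and 1.32 in Dox- replicates 1, 2 and 3. At Pmepa1 both Dox+ values thus lay above the 3 Dox- values, and Dox+ replicate 1 had no peak there. The peak with 3.61 lay 1798 to 2026 bp past the 5′ end of Pmepa1, and the Dox+ replicate 3 peak over that end had a fold of 2.53. The value of 1.32 in Dox- replicate 3 was higher than only 0.768% of its list and had a −log10 q-value of 0.26. Over the 9 genes the median merged fold was 2.41 in Dox+ and 2.45 in Dox-, and it was higher in Dox+ at 4 of 9. None of the 9 start regions was listed as different between Dox+ and Dox-.

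**Figure D1:**
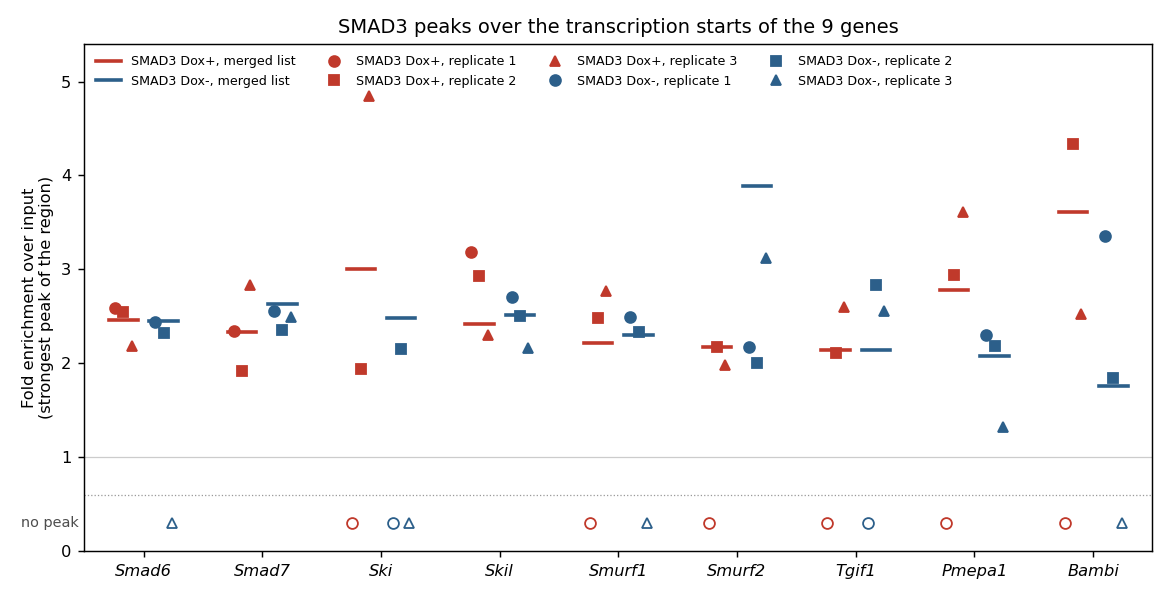
Fold enrichment over input (y axis, linear) of the strongest SMAD3 peak in the region over the start of each gene (x axis), with 1 symbol for each replicate list, a bar for the merged list, red for Dox+ and blue for Dox-. Open symbols under the dotted line stand for lists with no peak in the region, which for Dox+ are all replicate 1, and at most genes the filled red and blue symbols overlap.

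Skil was the only member with a site listed as different between SMAD3 and OCT4 in the Dox+ cells. Its start region was listed as higher for SMAD3, with an authors' mean concentration (log2 normalised reads) of 5.60 for SMAD3 and 3.58 for OCT4. This was 1 of 9 members, where 5.15% of all genes had a site listed as higher for SMAD3 than for OCT4. No member had a site listed as higher for OCT4, as 4.17% of all genes did. The group means carry no replicate values, so no error can be given for them.

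The sites that the authors' differential analysis listed lay away from the starts, and at 4 of 5 members with such a site SMAD3 was lower in Dox+. Their table holds sites at a false discovery rate (FDR) of 0.1 or less whose log2 fold was 1 or more in size, and the values below are their group mean concentrations. A site listed as lower in Dox+ was found at 4 of 9 loci (Smad6, Smad7, Ski and Pmepa1), where 3.85% of all genes had one. A site listed as higher in Dox+ was found at 1 of 9 (Tgif1), where 6.64% had one. Among the 9541 genes with merged SMAD3 peaks in both conditions, as all 9 members had, these shares were 6.54% for lower and 10.3% for higher. Long loci have more room for sites, and the part of the members' length in these counts was not tested. Counted by region, 4 of the 22 regions of the members that were in at least 2 of the 6 replicate lists held a site listed as lower and 1 of 22 a site listed as higher, against 6.84% and 8.90% of all 13217 such regions.

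The site in Ski showed the largest difference of the 5. It lay in an intron 5130 bp past the 5′ end of the gene, with a mean concentration of 1.30 in Dox+ and 4.05 in Dox-, a difference of -2.75. It ranked 92 of 904 sites listed as lower. No Dox+ replicate list had a peak there, whereas Dox- replicates 1 and 2 did, with a fold of 2.44 and 2.55. Ski was thus the only listed member whose Dox+ lists were all empty at the site.

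At Smad6, Smad7 and Pmepa1 the sites listed as lower still carried a Dox+ peak in at least 1 replicate list. The Smad7 site (chr18:75391446-75393194) lay in an intron 24791 bp past the 5′ end, with means of 2.80 and 4.51 and a difference of -1.71, and peaks in Dox+ replicate 2 (2.20) and in Dox- replicates 2 (1.72) and 3 (1.75). The fold was thus higher in the Dox+ list that had a peak than in the Dox- lists, while the group means ran the other way. The Pmepa1 site (chr2:173263370-173264264) lay in an intron 12716 bp past the 5′ end, with means of 2.58 and 3.94 and a difference of -1.36, and peaks in Dox+ replicate 2 (2.76) and Dox- replicates 2 (2.68) and 3 (1.91). In the merged lists each member site listed as lower had a peak in Dox- alone. Its fold was 3.45 at Smad6, 2.18 at Smad7, 2.05 at Ski and 3.33 at Pmepa1. The value at Pmepa1 was the highest of its locus in that list. The Smad6 site (chr9:63941783-63943282) lay past the 3′ end of the gene, at the edge of the locus, with 207 of its 1500 bp inside the 10 kb limit. Its means were 2.42 and 4.16, a difference of -1.74, with peaks in Dox+ replicates 2 (1.90) and 3 (2.28) and in Dox- replicates 2 (3.19) and 3 (2.78). At Smad6 alone of the 3 did the replicate folds follow the group means, with both Dox+ values below both Dox- values.

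The site listed as higher at Tgif1 (chr17:70834423-70835379) lay past the 3′ end of the gene, 18645 bp from its 5′ end, with a mean of 3.00 in Dox+ and 1.50 in Dox- and a difference of 1.50. The 201 bp around its center overlapped an exon of the noncoding gene Gm20703. Dox+ replicates 2 and 3 had a peak there, with a fold of 1.97 and 2.01, and no Dox- list did. These were weak peaks, higher than 22.5% and 17.9% of their lists, with a −log10 q-value of 0.88 and 1.14. The merged Dox+ list had no peak at the site. A second Tgif1 site lay just outside the 10 kb limit, 11.2 kb upstream of the gene (chr17:70864764-70865494). Its means were 3.39 in Dox+ and 1.29 in Dox-, a difference of 2.10, with a SMAD3 peak in Dox+ replicates 2 (2.40) and 3 (3.97) and in no Dox- list. It also overlapped a merged OCT4 peak with a fold of 6.06, which replicate 1 of the 3 OCT4 lists shared (6.63), and in the separately normalised table of OCT4 and SMAD3 the same site had a mean of 4.83 for OCT4 and 2.54 for SMAD3. A further merged OCT4 peak, with a fold of 7.53 and no SMAD3 peak over it, lay 15.8 kb downstream of Tgif1 (chr17:70828240-70828438). No other member had a merged OCT4 peak within 50 kb. Both sites of Tgif1 thus ran opposite to the 4 listed at Smad6, Smad7, Ski and Pmepa1.

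**Figure D2:**
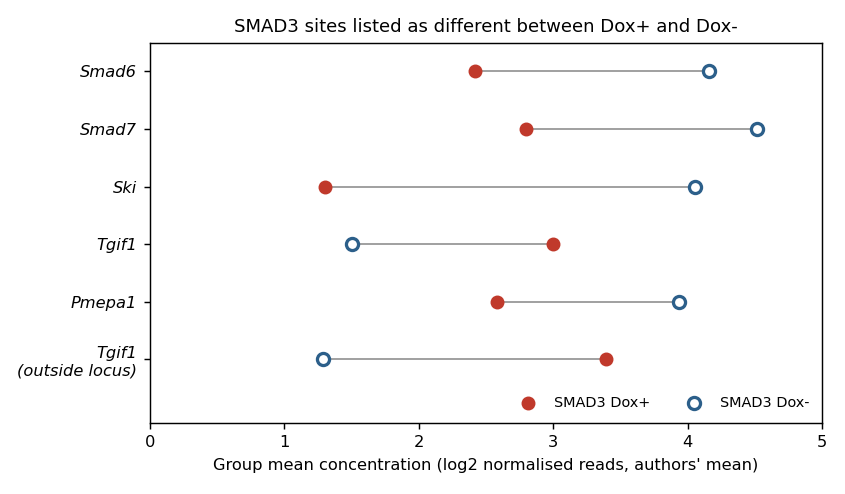
Authors' group mean concentration of SMAD3 (x axis, log2 normalised reads) in Dox+ (filled red) and Dox- (open blue) at the listed sites of each locus (y axis), with the Tgif1 site just outside its locus in the bottom row. Ski shows the widest gap, from 1.30 to 4.05, and the 2 Tgif1 sites are those with the higher value in Dox+.

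The sequences at the centers of 4 of the listed sites are given here because these are among the places where the 2 SMAD3 groups, or SMAD3 and OCT4, were listed as different. Each runs over 201 bp of the plus strand of mm10, 5′ to 3′ in lower case, with matches to the searched motifs in capitals. The motifs, searched on both strands, were the SMAD box CAGAC and its palindrome GTCTAGAC, the GC-rich SMAD motifs GGCGC and GGCCG, the AP-1 motif TGANTCA, the octamer ATGCAAAT bound by OCT4, and the KLF4 motif GGGCGTGG or GGGTGTGG. GGCGC and GGCCG can share bases with each other.
Pmepa1, chr2:173263717-173263917: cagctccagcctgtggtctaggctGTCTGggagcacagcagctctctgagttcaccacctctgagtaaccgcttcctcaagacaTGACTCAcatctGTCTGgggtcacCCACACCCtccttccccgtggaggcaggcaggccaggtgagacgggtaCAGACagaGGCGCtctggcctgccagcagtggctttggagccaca
Smad6, chr9:63942432-63942632: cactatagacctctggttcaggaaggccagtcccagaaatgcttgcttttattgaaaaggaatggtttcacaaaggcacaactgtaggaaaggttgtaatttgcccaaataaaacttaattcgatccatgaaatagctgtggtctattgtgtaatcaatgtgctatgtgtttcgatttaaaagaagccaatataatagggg
Tgif1, chr17:70834801-70835001: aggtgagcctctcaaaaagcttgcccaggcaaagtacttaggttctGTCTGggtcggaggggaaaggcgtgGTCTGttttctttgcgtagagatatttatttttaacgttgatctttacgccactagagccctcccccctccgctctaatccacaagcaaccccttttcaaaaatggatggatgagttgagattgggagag
Skil, chr3:31094768-31094968: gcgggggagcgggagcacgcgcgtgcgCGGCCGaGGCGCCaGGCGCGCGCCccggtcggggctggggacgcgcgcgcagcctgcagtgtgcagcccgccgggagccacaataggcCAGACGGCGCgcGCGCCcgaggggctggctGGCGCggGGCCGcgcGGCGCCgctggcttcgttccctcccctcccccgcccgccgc

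The windows of 5 of the 6 listed sites are described. Pmepa1 had 3 CAGAC boxes, 1 AP-1 motif, 1 KLF4 motif and 1 GGCGC. Smad6 had no match to any of the 7 motifs, and neither did the window of Smad7. Tgif1, where SMAD3 was listed as higher, had 2 CAGAC boxes. CAGAC was in 38.9% of all 904 windows listed as lower and in 37.5% of the 1176 windows listed as higher, while TGANTCA was in 10.1% and 8.08%. The Skil window, just before the start, had 9 GGCGC, 3 GGCCG and 1 CAGAC, and GGCGC was in 55.3% of the 658 sites listed as higher for SMAD3. None of the 4 windows printed here had the octamer.

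In the merged peaks the palindrome GTCTAGAC was found at Smad7 only. It lay in the windows of the Smad7 start peaks of both the Dox+ and the Dox- list, which overlap, and it was in 0.247% of all merged Dox+ windows and 0.252% of all merged Dox- windows. CAGAC was in 7 of 15 member windows in Dox+ (35.0% of all) and in 10 of 23 in Dox- (36.1% of all). GGCGC was in 10 of 15 in Dox+ (50.3% of all) and in 7 of 23 in Dox- (48.7% of all), and GGCCG was in 9 of 15 (49.8% of all) and 10 of 23 (49.4% of all). The octamer was in 1 of 15 in Dox+ (0.771% of all), at an intron peak of Smad7, and in 0 of 23 in Dox- (0.539% of all). The KLF4 motif was in 2 of 15 (7.68% of all) and 0 of 23 (5.43% of all). TGANTCA was in 0 of 15 (5.64% of all) and 1 of 23 (7.56% of all). A match says only that these letters are in the window.

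Skil, Smurf2 and Bambi had a start region alone, and the other 6 members had further regions. The joined lists gave 43 regions at the 9 loci, with 11 at Smad7, 10 at Pmepa1, 7 each at Smad6 and Ski, 3 at Smurf1, 2 at Tgif1 and 1 each at Skil, Smurf2 and Bambi. Of the 43, 22 were in at least 2 replicate lists and 21 in 1 list, and 19 of those 21 came from the longest list of either condition, with 13 in Dox+ replicate 2 and 6 in Dox- replicate 2. Intron was the most common position, with 23 of the 43 centers, while 7 centers were in exons, 5 upstream and 8 downstream of the gene. Peaks came from both conditions at 19 regions, from Dox+ replicates alone at 16 and from Dox- replicates alone at 8. Just 3 regions were in at least 2 replicates of a condition and in none of the other. These were the Ski intron site and, in Dox+, the Tgif1 site and an intron region of Pmepa1 (chr2:173257755-173258324), which was not listed. The most distant regions of Ski and Pmepa1 lay nearer to a start of another gene, Morn1 and Zbp1, than to their own.

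The strongest merged peak lay within 1 kb of a start of the gene at 9 of 9 members in Dox+, against 62.3% of all genes with a merged Dox+ peak, and at 6 of 9 in Dox-, against 63.0%. At Smurf1, 1 of those 6, it was at an internal start, with a fold of 3.18 (chr5:144898606-144898877). A count of 6 of 9 is near 63.0% and is no result about the members. The strongest Dox- peak lay elsewhere at Smad6, Smad7 and Pmepa1, and only at Pmepa1 was it at a listed site. At Smad6 the strongest Dox- peak was an intron peak with a fold of 5.44 (chr9:63980682-63980972), higher than 98.5% of its list. That Smad6 peak was in no Dox- replicate list, and the only replicate with a peak there was Dox+ replicate 2, with a fold of 1.77. At Smad7 the strongest was an intron peak with a fold of 2.81 (chr18:75377725-75379221), which overlapped peaks in Dox- replicates 2 (2.49) and 3 (2.77) and Dox+ replicate 2 (1.90).

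Covered length, the number of bp under SMAD3 peaks in a locus, did not separate Dox+ from Dox- at any member. Few genes did separate, with 0.755% of the 14706 genes with a peak higher in Dox+ and 2.48% lower. The lack of separation is thus no result about the members. Covered length was compared per Mb covered by the whole list, since the lists ranged from 0.123 to 17.2 Mb. Such scaling gives a single peak in the short Dox+ replicate 1 list a large value. At Skil it gave 3239, 116 and 318 bp per Mb in Dox+ replicates 1, 2 and 3 and 816, 144 and 1032 bp per Mb in Dox-. At Smad7 it gave 2105, 521 and 188 bp per Mb in Dox+ and 1045, 458 and 1267 bp per Mb in Dox-. For both genes the Dox+ lists held the highest value and the lowest.

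Smurf2 came nearest to a separation. It had 0, 53.2 and 86.3 bp per Mb in Dox+ and 560, 73.2 and 299 bp per Mb in Dox-, a mean of 46.5 ± 43.5 (SD, n = 3) against 311 ± 243 (SD, n = 3). The exact two-sided permutation test gave p = 0.2 at Smurf2, the lowest of the 9, and p from 0.5 to 1 at the others. With 3 lists against 3 the test cannot give a p below 0.1. Lists did not overlap at 0 of 9 members in either direction, where 0.755% of the 14706 genes with a peak were higher in Dox+ in all lists and 2.48% lower. A count of 0 of 9 is near both shares.

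The sign of the mean difference depended on Dox+ replicate 1 at 4 members. At Smad6 the scaled values were 2603, 391 and 181 bp per Mb in Dox+ and 1007, 307 and 0 bp per Mb in Dox-, with a mean difference of 620 bp per Mb that became -152 without Dox+ replicate 1. Without it the difference also changed sign at Smad7, from 14.9 to -569, at Skil, from 560 to -447, and at Pmepa1, from 377 to -44.0. These 4 genes are those with a peak in Dox+ replicate 1, and the other 5 members had 0 bp in that list. Unscaled, covered length at Tgif1 was 0, 6742 and 5001 bp in Dox+ and 0, 4037 and 1045 bp in Dox-, which overlapped (exact permutation p = 0.5).

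**Figure D3:**
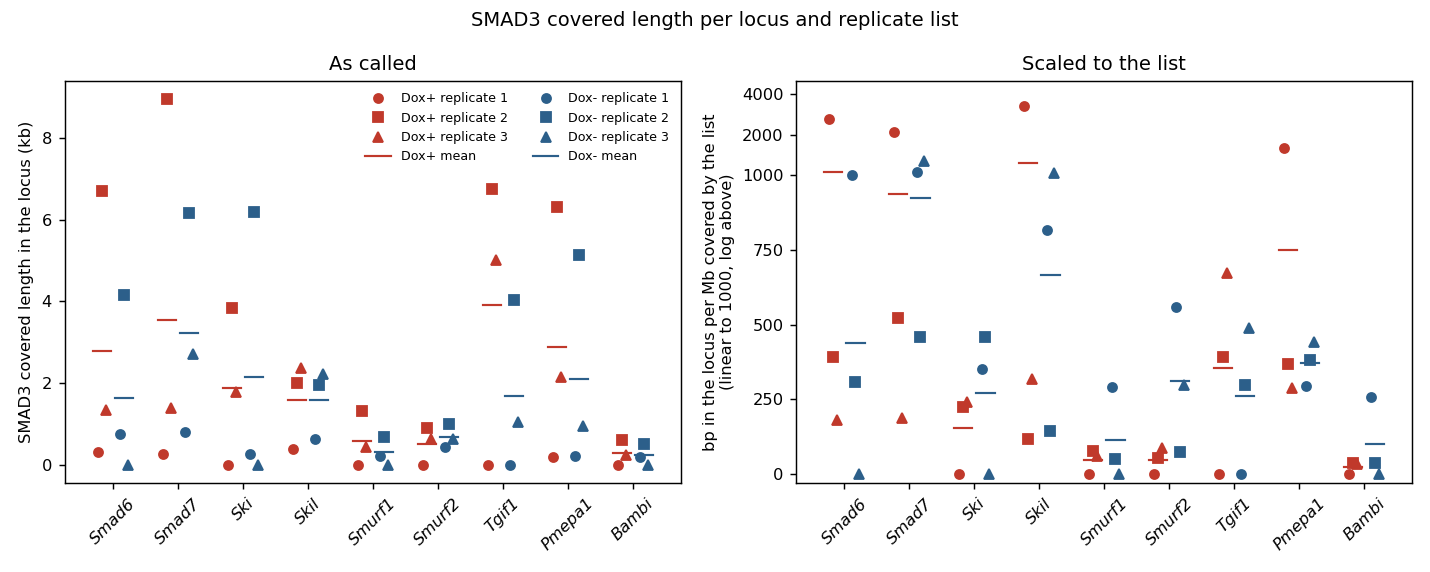
SMAD3 covered length in each locus (x axis) for each replicate list, in kb as called (left) and in bp per Mb covered by the list (right, linear to 1000 and logarithmic above), with bars for the mean of 3 lists. Red Dox+ and blue Dox- symbols overlap at all 9 genes in both panels, and Dox+ replicate 1 has the highest scaled value at Smad6, Smad7, Skil and Pmepa1.

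Most of the other genes of the pathway also had SMAD3 peaks. Of 33 genes for ligands and their antagonists, receptors, transducers and other negative regulators, 28 had a merged SMAD3 peak in Dox+ (52.5% of all genes) and 28 in Dox- (48.0%), and 23 had a merged peak near a start in both (33.6%). A site listed as lower in Dox+ was found at 7 of 33, where 3.85% of all genes had one. A site listed as higher was found at 0 of 33, where 6.64% had one. Among the 9541 genes with merged SMAD3 peaks in both conditions these shares were 6.54% and 10.3%, and not all of the 33 had such peaks. Whether the 33 genes differ from these shares, and the part of locus length, was not tested. The genes with a lower site were the antagonists Fst and Fstl3, which trap activin, Ltbp1 and Ltbp3, which hold latent TGF-beta in the matrix, the receptors Tgfbr3 and Acvr1b, and Smad3 itself. The site at Fstl3 had means of 1.24 in Dox+ and 4.43 in Dox-, a difference of -3.18, and the 2 sites at Smad3 had differences of -1.57 and -2.37. Among the 6 other negative regulators (Ppm1a, Wwp1, Nedd4l, Strap, Ctdsp2 and Dact2) none had a listed site. Over all genes 3.85% had a lower site and 6.64% a higher one. A count of 0 of 6 is near these shares and is no result about the 6 genes. Their difference from the 9 genes described here was not tested. A merged OCT4 peak lay at 3 of the 33, where 4.85% of all genes had one, namely Lefty2, a secreted antagonist of Nodal, Tgfbr3 and Nedd4l.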

How the data were processed

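ChIP-seq peak lists and differential tables from MEFs with Smad3CA on day 3 were used. Per the methods of the study and the submitters' processing notes, the authors trimmed reads, aligned them to mm10 with Bowtie 2, removed duplicates, reads under a mapping quality of 40 and blacklisted regions, and called peaks with MACS2 2.1.0 against merged inputs, on each replicate and on merged replicates (OCT4 narrow, q 0.01, SMAD3 broad, cutoff 0.1). The deposited peak lists give each peak a fold enrichment over input (a linear ratio) with its −log10 q-value. The authors' deposited DiffBind tables hold log2 mean concentrations per group, with no replicate values, plus their own fold, p-value and FDR columns, which were not used: direction was taken from the difference of the group means. Signal matrices at OCT4 peaks were left out because no OCT4 peak overlapped a member locus, and gapped lists because they hold the same regions as the broad lists. The planned comparison of OCT4 and SMAD3 signal at OCT4 peaks of these loci was therefore not made.

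The 9 genes, the lists of other pathway genes and the tests were chosen with earlier results of these data known. Genes came from GENCODE vM21, overlap meant at least 1 bp, and summit entries of OCT4 peaks were collapsed. All 9 genes are named, with every region holding a listed site or an OCT4 peak, and the strongest merged SMAD3 region in each condition, in full except as stated below, and the rest as counts. Counts within 1 kb of a start, the strongest peak of a locus and sites outside the 10 kb limit were added after the data were seen. Covered length was compared by exact two-sided permutation over 3 against 3 lists (numpy 2.4.6), without a replicate block, and was checked on simulated data. Motifs were searched within 100 bp of centers in the GRCm38.p6 sequence (RefSeq), the assembly of mm10, with pysam 0.24.0. The sequences at 2 listed sites, and the coordinates and motifs at 1 of them, are not reported here. Over 14706 genes the deviations of samples sharing replicate number 1, 2 or 3 correlated at 0.12, 0.04 and 0.04. Not every pair was over 0.1, so the numbers were not taken to pair the samples, although the replicate 1 list was the shortest and the replicate 2 list the longest in both conditions. Flank, −log10 q, overlap, scaling and left-out replicates were varied. Peak lists give no read depth, and p-values measure only the spread between these samples, which may be technical.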

Additional observations from a re-analysis of the deposited data

How the results depend on the processing

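Member loci with a merged SMAD3 peak numbered 9 in each condition with flanks of 0 or 50 kb, with support from at least 2 replicate lists and with at least 50% of the peak inside, and 5 in each with a −log10 q of at least 2. The 5 were Smad6, Smad7, Ski, Pmepa1 and Bambi in Dox+ and Smad6, Ski, Smurf1, Smurf2 and Pmepa1 in Dox-. Merged OCT4 peaks reached 1 locus, Tgif1, with a 50 kb flank. Loci with a site listed as higher in Dox+ went from 1 to 0 without a flank, and those with a site listed as lower from 4 to 3. A log2 difference of at least 2 also gave 0 loci listed as higher, and 1 (Ski) in place of 4 listed as lower. Chosen after seeing the data, a merged peak over the start itself was found in both conditions at 8 genes, and one within 5 kb at 9. Regions in at least 3 replicate lists numbered 17 in place of 22.

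Members whose covered length did not overlap numbered 0 for higher in Dox+ in each setting run, and for lower in Dox+ 1 without a flank (Smurf2) and 0 to 2 without 1 list in turn: 1 without Dox+ replicate 3 or Dox- replicate 2 (Smurf2) and 2 without Dox- replicate 3 (Ski and Bambi). The mean difference in covered length changed sign without a flank at Smad7 (-296 bp per Mb), Skil (-109) and Pmepa1 (-166), with a 50 kb flank at Smad7 (-29.3) and Smurf2 (341), with a −log10 q of at least 2 at Ski (214), Smurf1 (119) and Bambi (34.4), and without scaling at Skil (-8 bp), Smurf1 (290 bp) and Bambi (52.0 bp). Leaving out 1 list in turn, it ran from -152 to 1059 bp per Mb at Smad6, -569 to 390 at Smad7, -250 to -20.1 at Ski, -447 to 1114 at Skil, -126 to 20.5 at Smurf1, -383 to -140 at Smurf2, -65.8 to 270 at Tgif1, -44.0 to 607 at Pmepa1 and -126 to 4.16 at Bambi. The sign turned without Dox+ replicate 1 (Smad6, Smad7, Skil, Pmepa1), Dox+ replicate 3 (Tgif1: -65.8), Dox- replicate 1 (Smurf1: 20.5, Tgif1: -38.3, Bambi: 4.16) and Dox- replicate 2 (Smad7: -218). No peak of Smurf2 or Tgif1 gave a value that could be compared at a −log10 q of at least 2. The causes were not tested.

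With a replicate block (exact sign flips of 3 differences, smallest p 0.25) p was 0.25 at Smad6 (difference 620 bp per Mb) and Smurf2 (-264), 0.5 at Tgif1 (92.8), 0.75 at Ski (-115) and Bambi (-75.9) and 1 at Smad7 (14.9), Skil (560), Smurf1 (-68.5) and Pmepa1 (377). Replicates 1 and 2 of Dox+ correlated best with their own number in Dox-, and replicate 3 with replicate 2 (0.07). Peak lists show no read depth, so a peak absent from a short list limits each count above.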
